A study of Oryza sativa Japonica Group with 9 samples.

Results

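OsbZIP23 binding in unstressed rice seedlings was compared between a line that overexpresses OsbZIP23 and its parent cultivar, the Japonica variety Zhonghua 11 (ZH11), as regions enriched in chromatin immunoprecipitation followed by sequencing (ChIP-seq peaks). All peaks of both lists are covered, 11611 from the overexpressor and 1738 from ZH11, of 17609 peaks in the 3 lists of the series. The third list came from ZH11 under drought and is used here only as a further list. Both groups were watered normally. The above-ground parts of seedlings at the four-leaf stage were fixed in formaldehyde, and chromatin was precipitated with a rabbit polyclonal antibody against OsbZIP23 that was not a commercial product. Each group was 1 library from whole shoots, so cell types were mixed, no difference between the groups could be tested against replicates, and every value below describes these 2 libraries. The labels give neither the promoter of the transgene nor the number of independent lines, only that the line came from an earlier study. Intervals (95%, exact Clopper-Pearson) cover counting error only.

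OsbZIP23 is a transcription factor with a basic region that contacts DNA and a leucine zipper through which it pairs with itself or a relative. Factors of this class bind the abscisic acid (ABA) responsive element, a short sequence with an ACGT core found before many genes induced by drought, and they are switched on by kinases of the ABA pathway. In a ChIP-seq experiment a peak marks DNA that was recovered more often than its surroundings, and its summit marks the base with the highest pile-up of tags (mapped read starts). The coordinates below are those of the deposited lists. Their genome build is not given in the sources used here, so no gene is assigned to a peak and no sequence is shown.

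The transcript of OsbZIP23 (LOC_Os02g52780) was the check on the label. In the RNA libraries of the same groups, 1 each, it had 32.3 counts per 1000000 reads (CPM) in ZH11 and 1320 CPM in the overexpressor, a ratio of 40.8 (37.1–45.0). Across 21934 genes, 2.36% were at least 2-fold higher in the overexpressor library and 3.85% at least 2-fold lower. A polyclonal antibody may also bind related proteins, and 4 relatives of the same class had levels that lay closer together. OsbZIP72 had 31.6 and 45.9 CPM in ZH11 and the overexpressor, a ratio of 1.45 (1.28–1.65). OsbZIP12 had a ratio of 1.13 (0.927–1.37), TRAB1 1.08 (0.881–1.33) and OsbZIP46 0.785 (0.531–1.15). None of the 4 was 2-fold apart, and whether the antibody binds them was not tested.

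The overexpressor list held 6.68 times as many peaks as the ZH11 list from a library of nearly the same depth. The peak caller used 6050680 tags for the overexpressor and 6153810 for ZH11, after it had dropped repeated tags at a position, at a rate of 0.13 and 0.21. Its estimate of the fragment size was 137 bp in the overexpressor and 152 bp in ZH11. The part of these differences in the lengths of the lists was not tested. Peaks took up 16.0% of the overexpressor's tags (15.96–16.02) and 1.27% of those of ZH11 (1.257–1.275). They covered 15.5 Mb, or 4.16% of the 374 Mb of sequence that the lists span, in the overexpressor, and 2.46 Mb, or 0.657%, in ZH11. The ZH11 drought list lay between these, with 4260 peaks and 4.32% of 7136789 tags.

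Counting any overlap of 1 bp or more, 695 of the 1738 ZH11 peaks, or 39.99% (37.7–42.3), touched an overexpressor peak. From the other side, 716 of the 11611 overexpressor peaks, or 6.17% (5.74–6.62), touched a ZH11 peak. The remaining 1043 ZH11 peaks and 10895 overexpressor peaks were specific to their list, so the longer list did not contain the shorter one. In all there were 719 overlapping pairs, of which 665 joined 1 peak to 1 peak, while 24 ZH11 peaks touched 2 overexpressor peaks and 3 overexpressor peaks touched 2 ZH11 peaks. The common stretch had a median of 762 bp and made up a median of 97.8% of the overexpressor peak and 68.6% of the ZH11 peak. At the median the overexpressor peak thus lay almost wholly inside the ZH11 peak. In 160 of the 665 1-to-1 pairs, however, the overexpressor peak was the wider one. In bases, the lists had 0.688 Mb in common, 28.0% of the ZH11 list and 4.43% of the overexpressor list.

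Few peaks sat at the edge of the overlap rule. Just inside it, 9 pairs shared at most 100 bp, and the smallest overlap was 2 bp, at the ZH11 peak Chr4:28038597-28040140 with 44 tags. Just outside it, 12 ZH11 peaks ended within 100 bp of an overexpressor peak, the nearest at 15 bp, Chr12:20497748-20501330 with 250 tags. The median tags and score of the ZH11 peaks were 32.0 and 59.8 just inside and 27.5 and 66.9 just outside. Of all ZH11-specific peaks, 7.48% lay within 1 kb of an overexpressor peak and 38.5% within 10 kb, with a median distance of 14450 bp. For overexpressor-specific peaks the median distance to a ZH11 peak was 117200 bp, and 55.1% were over 100 kb away. These distances also carry the unequal density of the lists.

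The 2 list-specific classes differed most in how many tags they held. Overexpressor-specific peaks had a median of 67 tags (quartiles 45 to 106) over a median width of 1159 bp, and ZH11-specific peaks a median of 29 tags (17 to 47) over 1120 bp. Scaled to width and depth, as tags per kb and per 1000000 tags used (RPKM), this was 9.12 against 4.20 RPKM. Widths were thus close and tag density was not. Of the 1738 ZH11 peaks, 95 reached the median density of the overexpressor list, 9.02 RPKM, and 91 of these 95 overlapped an overexpressor peak. In the other direction, 3.70% of the overexpressor peaks lay under the ZH11 median.

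**Figure D1:**
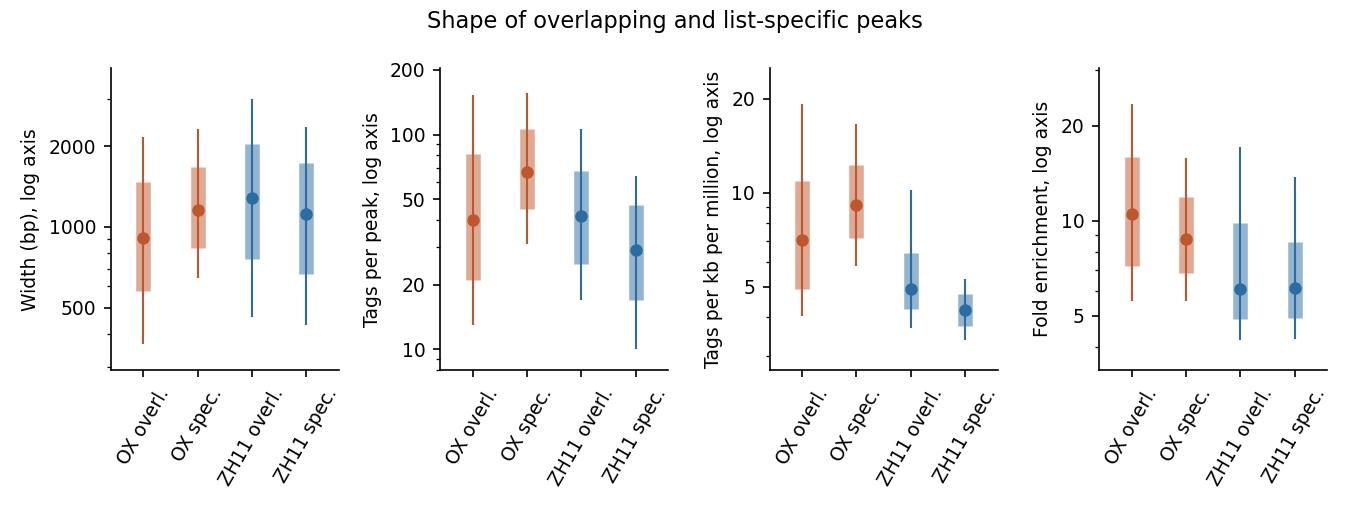
Width, tags, tag density (RPKM) and fold enrichment (log axes) of peaks that overlap the other list (overl.) or are list-specific (spec.), for the overexpressor (OX, orange) and ZH11 (blue); points are medians, thick bars quartiles and thin lines the 10th to 90th percentile over peaks. Tag density separates the list-specific classes, with medians of 9.12 in overexpressor-specific and 4.20 in ZH11-specific peaks. In overlapping peaks the medians are 7.06 and 4.89, and the quartile ranges overlap. Overlapping overexpressor peaks are narrower (median 908 bp) than overexpressor-specific ones (1159 bp).

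Within the overexpressor list, the peaks that overlapped ZH11 were narrower and had a higher fold enrichment, but a lower tag density, than the specific ones. They had a median width of 908 bp (578 to 1464) and 40 tags (21 to 81), against 1159 bp (832 to 1666) and 67 tags. Their median tag density was 7.06 RPKM, against 9.12 RPKM in the specific peaks. Their median fold enrichment was 10.5 (7.22 to 15.9), against 8.78 (6.82 to 11.9) in the specific peaks. Fold enrichment is the peak caller's own ratio to the local background of the same library, and is not the tag density of the whole peak. The smallest peaks overlapped most often. Of the 523 overexpressor peaks of up to 500 bp, 26.8% (23.0–30.8) overlapped ZH11, compared with 4.37% (3.84–4.96) of the 5258 peaks between 1001 and 2000 bp. Peaks of up to 500 bp made up 19.6% of the overlapping class and 3.52% of the specific class.

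The ZH11 list ran the other way on width. Its overlapping peaks had a median of 1287 bp (762 to 2038) and 42 tags (25 to 68), against 1120 bp (670 to 1730) and 29 tags in its specific peaks. This order of widths turned when an overlap of at least 50% of both peaks was asked for. The overlap rose with ZH11 width, from 35.7% (29.4–42.3) of peaks up to 500 bp to 60.3% (50.8–69.3) of the 116 peaks of 3013 bp and more, and a wider peak has more room to touch another. Median fold enrichment was 6.07 in overlapping and 6.12 in specific ZH11 peaks, and the ratio of these medians, 0.992, turned to 1.11 at 50% overlap and to 1.39 among peaks with a score of at least 100.

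Score, which is 10 times the negative log10 of the peak caller's p, was lower in specific than in overlapping ZH11 peaks. ZH11-specific peaks crowded above the caller's limit of 50, with a median score of 58.6 and 54.7% (51.7–57.8) under 60. None of the 1043 reached 200 (at most 0.353%), and the highest was 157. Of the overlapping ZH11 peaks 35.7% were under 60 and 9.06% reached 200. Overexpressor-specific peaks had a median score of 94.0, only 18.3% of them lay under 60, and 1920 of them, or 17.6%, reached 200. In the lowest 10% of the ZH11 list by score, 28.7% (22.1–36.1) overlapped the overexpressor. In the highest 10%, with scores of 105 and up, 87.3% (81.4–91.9) did. The overexpressor list showed little of this, with 6.28% (4.96–7.84) in its lowest 10% and 10.3% (8.64–12.2) in its highest.

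**Figure D2:**
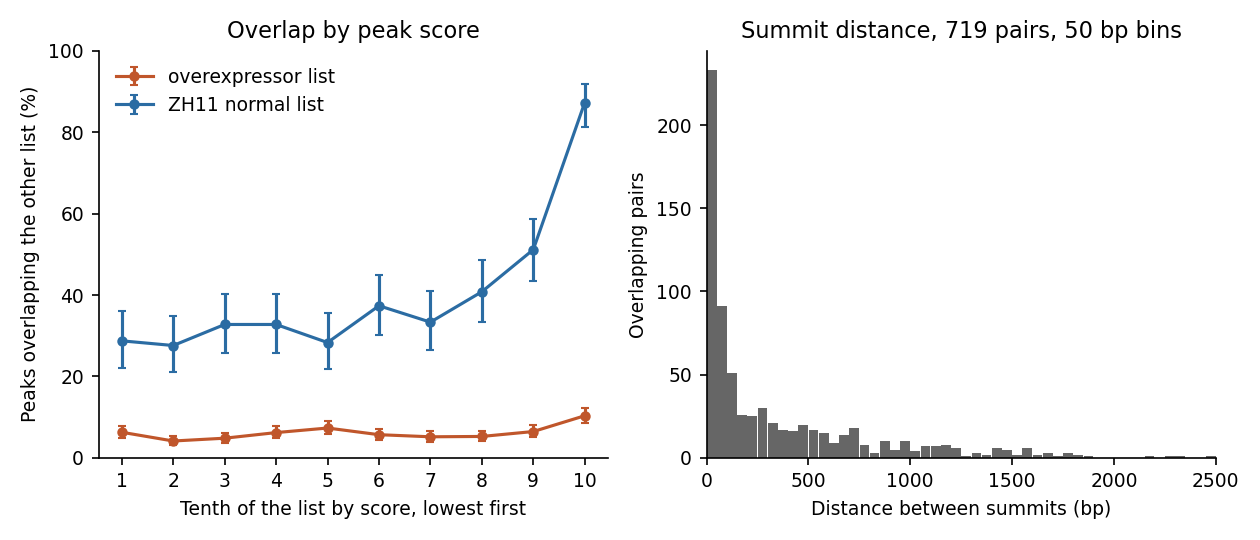
Left, the share of peaks that overlap the other list (%, 95% exact intervals) in each of 10 equal groups of a list ordered by score; right, the distance in bp between the summits of the 719 overlapping pairs in bins of 50 bp (7 pairs lie beyond 2500 bp and are not drawn). The ZH11 share climbs to 87.3% in the highest group while the overexpressor share stays between 4.13% and 10.3%, and 235 pairs have summits within 50 bp.

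Among overlapping pairs the summits were often at nearly the same base. The median distance between summits was 135 bp (30 to 512), 32.7% of the 719 pairs had summits within 50 bp and 59.5% within 250 bp, and 11.1% were over 1000 bp apart. The distance followed the width of the ZH11 peak. Where that peak was at most 500 bp wide, the median distance was 9 bp and 68 of 81 pairs were within 50 bp. Where it was over 2000 bp wide, the median was 445 bp and 34 of 191 pairs were within 50 bp. A summit cannot lie farther away than the peaks reach, so width limits these distances. By score, the median was 53 bp for ZH11 scores of 100 or more and 226 bp for those under 60.

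Tag density in the 665 pairs that join 1 peak to 1 peak was higher in the overexpressor in most, but by little. The median was 7.05 RPKM in the overexpressor and 4.91 in ZH11, and the median log2 ratio was 0.34 (quartiles 0.00 to 0.82). The overexpressor was higher in 501 pairs and lower in 164. At least 2-fold higher were 130 of 665 pairs, or 19.5%, and 0 were at least 2-fold lower (0%). Both peaks of a pair had to pass the caller, and no overexpressor peak had a density under 2.83 RPKM. A pair with ZH11 at its median of 4.91 RPKM could thus not be 2-fold lower, so these 2 counts are not comparable. Each peak was measured over its own listed interval, and the overexpressor interval was the narrower one in 505 pairs, with a median log2 width ratio of -0.30. Without division by width the median log2 ratio of tags, scaled to depth, was -0.08, with 88 pairs at least 2-fold higher and 54 at least 2-fold lower. The sign of the median thus depended on the width. It also rests on the scaling, since depth here counts all tags used. Peaks took up 16.0% of these in the overexpressor and 1.27% in ZH11. Scaling to the tags outside peaks would raise every overexpressor value relative to ZH11, including the depth-scaled ratios of named pairs below. That scaling was not run.

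The ratio varied with the strength of the ZH11 peak. For the 152 pairs with a ZH11 score of 100 or more the median log2 density ratio was 0.01, with 9 pairs at least 2-fold higher in the overexpressor. For the 241 pairs with a ZH11 score under 60 the median was 0.50, with 67 pairs at least 2-fold higher. The score was computed from the ZH11 tags that also form the denominator, so part of this order is built in. The 3 pairs with the largest density ratios were picked after their values were seen. Their log2 density ratios were 3.75 on chromosome 3, 2.90 on chromosome 5 and 2.845 on chromosome 4. Their tag ratios, not divided by width, stand in the reverse order. At Chr4:21602671-21603714 the overexpressor had 302 tags, and ZH11 had 42 tags at Chr4:21602491-21603516, a depth-scaled ratio of 7.31 (5.28–10.4), with the summits 43 bp apart. At Chr5:16734680-16735740 the overexpressor had 268 tags over 1061 bp, against 71 over 2068 bp in ZH11, a ratio of 3.84 (2.94–5.06) before division by width. At Chr3:8923287-8924026 the overexpressor had 323 tags over 740 bp, while ZH11 had 163 tags over 4938 bp, a ratio of 2.02 (1.66–2.45) before division by width. The ZH11 peak on chromosome 4 scored 50.03, at the caller's limit, the one on chromosome 5 scored 80.6 and the one on chromosome 3 scored 109.

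**Figure D3:**
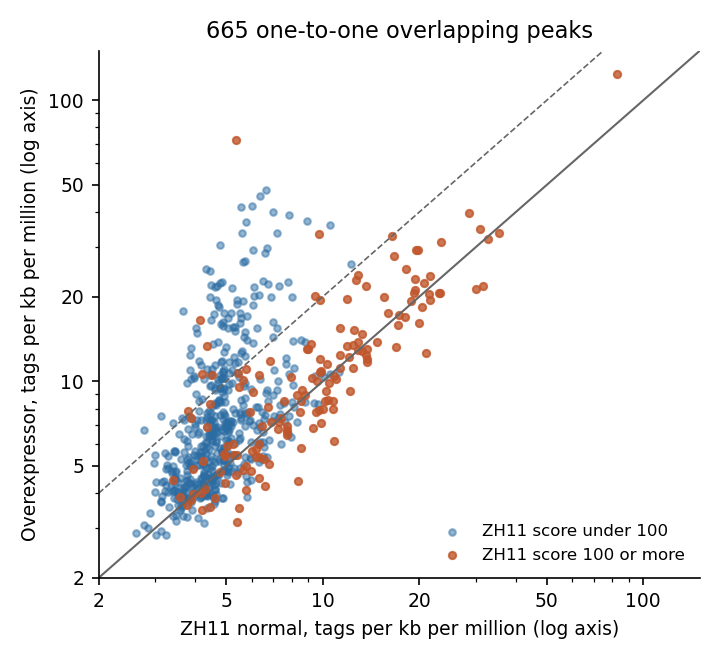
Tag density in RPKM (log axes) in ZH11 (horizontal) and the overexpressor (vertical) for the 665 overlapping pairs that join 1 peak to 1 peak; orange marks a ZH11 score of 100 or more, the solid line equality and the dashed line a 2-fold higher overexpressor. Pairs with a high ZH11 score follow the line of equality (median log2 ratio 0.01), while 130 pairs in all lie at or above the dashed line.

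The overlapping pairs with the highest overexpressor fold enrichment were narrow and held like numbers of tags in both libraries. Narrow peaks had the higher fold enrichment over each whole list, so rankings by it favour them. The median was 11.5 up to 500 bp and 8.62 at 1001 to 2000 bp in the overexpressor. In ZH11 these medians were 14.4 and 5.48. The top one, Chr11:12164522-12164791, had 32 tags in the overexpressor and 22 in ZH11, a depth-scaled ratio of 1.48 (0.833–2.67), with fold enrichments of 66.7 and 63.5 over their own backgrounds. Chr4:9173457-9173764 had 65 tags in each library, a ratio of 1.02 (0.710–1.46). At Chr4:9185381-9185632 the overexpressor had 19 tags and ZH11 24, a ratio of 0.805 (0.417–1.53). Chr10:10910392-10910769 had 40 and 29 tags, a ratio of 1.403 (0.848–2.35). Chr5:29907491-29908051 had 74 tags in each library, a ratio of 1.02 (0.727–1.42), over 561 bp in the overexpressor and 380 bp in ZH11. Divided by width, the log2 ratios of the 5 pairs ran from -0.54 at this pair to 0.72 at the top one. All 5 intervals of the tag ratio included 1, the summits of each pair lay 0 to 19 bp apart, and all 5 also overlapped a peak of the drought list.

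Peaks of such high fold enrichment were mostly present in both lists. Of 44 overexpressor peaks with a fold enrichment of at least 30, 40 overlapped ZH11, and of 26 such ZH11 peaks, 25 overlapped the overexpressor. In 23 pairs both sides reached 30, and their median log2 density ratio was 0.14. Asking for 30 on both sides favours like pairs, and pairs where only the overexpressor reached 30 are left out of this median. Among these, Chr12:7129783-7130366 had 130 tags against 24 in ZH11, while Chr5:11278228-11278632 had 19 against 21. All 40 overexpressor peaks that overlapped ZH11 also overlapped the drought list. Their median width was 324 bp. Of the 40, 19 stood in 4 runs of 3 or more with at most 100 kb between neighbours. A run of 6 spanned 217 kb at Chr11:12100294-12317574, another 6 spanned 98.8 kb at Chr10:10811936-10910769, 3 lay at Chr4:9133155-9185632, and 4 lay in 83.4 kb near the last listed peak of chromosome 5, Chr5:29853779-29937192. The grouping into runs was made after the values were seen.

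The 5 overlapping pairs with the most overexpressor tags differed in their ratios. The largest, Chr11:12122281-12123604, stands inside the run on chromosome 11 and had 993 tags in the overexpressor and 690 in ZH11, a depth-scaled ratio of 1.46 (1.33–1.62), with the highest score the lists hold in both. Chr4:23698526-23701779 had 576 and 364 tags, a ratio of 1.61 (1.41–1.84), and Chr3:5982505-5985417 had 518 and 353, a ratio of 1.49 (1.301–1.71). The other two were further apart. Chr9:9565153-9567865 had 688 tags in the overexpressor and 116 in ZH11, a ratio of 6.03 (4.95–7.41), and Chr4:26360110-26364485 had 588 and 118, a ratio of 5.07 (4.15–6.23). The Chr4 tags lay over 4376 bp in the overexpressor and 2832 bp in ZH11, and the Chr9 tags over 2713 and 3143 bp. Divided by width, the log2 ratios were 1.71 on chromosome 4 and 2.805 on chromosome 9. All 5 pairs were ranked on overexpressor tags, so ratios above 1 are favoured. All 5 lower bounds lay above 1.

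Overexpressor-specific peaks of the highest fold enrichment were mostly narrow too. Chr1:15058784-15059201 had 32 tags and a fold enrichment of 37.2, Chr6:14436632-14437207 had 64 tags and 34.3, Chr7:7157256-7159245 had 202 tags over 1990 bp and 30.8, Chr11:19852970-19853555 had 108 tags and 30.6, and Chr4:9106866-9107095 had 9 tags and 29.3. All but the one on chromosome 7 overlapped a peak of the drought list. By score, chosen after the values were seen, the first was Chr5:24292487-24293905, with 452 tags and a score of 1547, and the second Chr7:5950613-5951525, with 301 tags and 1517. By tags the first was Chr4:23702477-23709253, with 1051 tags over 6777 bp, next to the overlapping peak at Chr4:23698526-23701779 named above. The widest peak of the list, Chr2:31644344-31651679, had 625 tags over 7336 bp and was also specific. ZH11 had no listed peak at these positions, which bounds its signal only by the caller's limit.

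ZH11-specific peaks of the highest fold enrichment rested on few tags. The same held over the whole ZH11 list, whose highest 10% by fold enrichment had a median of 13 tags, against 34 in all peaks. Chr7:24835472-24836058 had 14 tags and a fold enrichment of 31.8, Chr8:4922331-4922633 had 10 tags and 28.9, Chr11:28160112-28160569 had 13 and 26.0, Chr7:17946078-17946605 had 14 and 24.7, and Chr12:17149226-17149655 had 11 and 23.7. Of these 5, the 2 on chromosome 7 overlapped a drought peak. Tag counts this small carry wide counting error. The ZH11-specific peaks with the most tags, chosen after the values were seen, were wide and had a low fold enrichment over the local background. Chr12:20531949-20537359 had 539 tags over 5411 bp at a fold enrichment of 2.73, and Chr8:3668831-3675585 had 507 tags over 6755 bp at 3.34. The widest ZH11 peak, Chr4:19396396-19403343, had 326 tags over 6948 bp at a fold enrichment of 3.47, and it overlapped the overexpressor list.

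The lists were spread differently over the chromosomes. The overexpressor list had between 23.1 peaks per Mb on chromosome 12 and 39.9 on chromosome 1, and the ZH11 list between 3.28 on chromosome 3 and 6.84 on chromosome 11. The chromosomes richest in overexpressor peaks were not those richest in ZH11 peaks. The overexpressor held 11.99 times (9.94–14.6) the ZH11 number of peaks on chromosome 3, 9.94 times (8.26–12.05) on chromosome 2 and 9.80 times (8.39–11.5) on chromosome 1. It held 3.404 times (2.90–4.01) as many on chromosome 11, 4.12 times (3.45–4.95) on chromosome 12 and 4.87 times (4.16–5.71) on chromosome 6. These 6 chromosomes were picked after their ratios were seen, as the 3 highest and the 3 lowest. The share of ZH11 peaks that overlapped the overexpressor ran from 30.8% (24.2–38.0) on chromosome 4 to 53.8% (44.4–63.0) on chromosome 3.

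**Figure D4:**
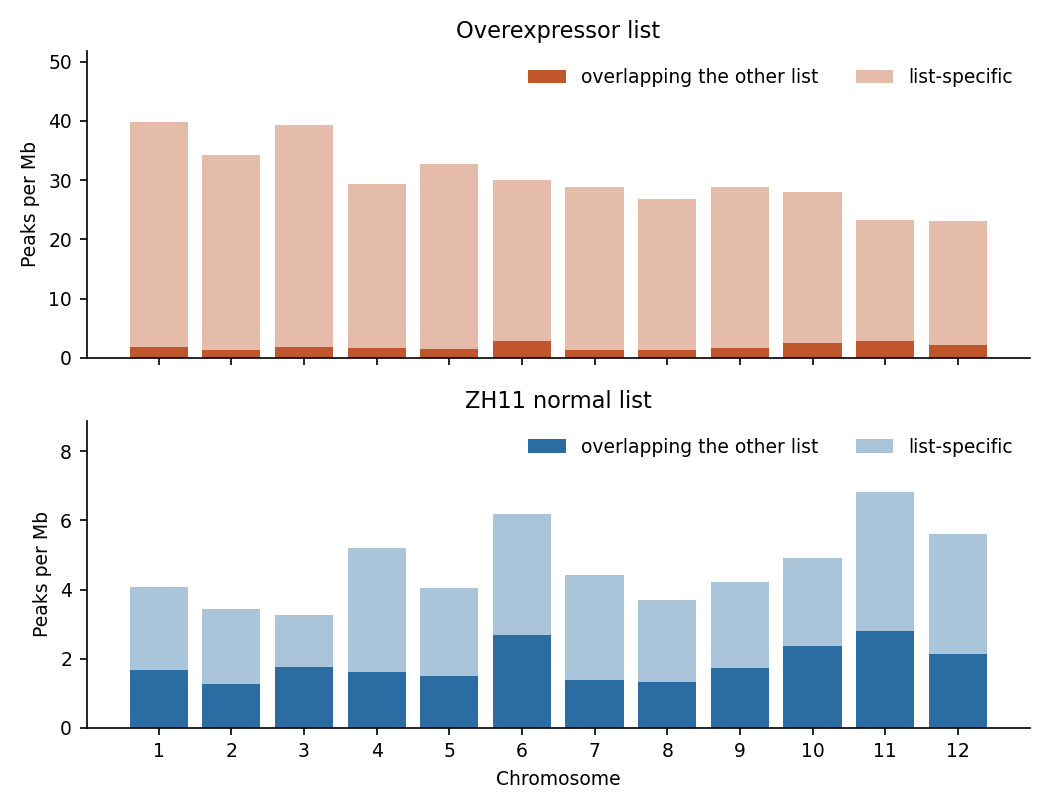
Peaks per Mb of listed span on chromosomes 1 to 12 in the overexpressor list (top) and the ZH11 list (bottom, smaller scale); dark parts overlap the other list and pale parts are list-specific. The overexpressor is densest on chromosomes 1 and 3 (39.9 and 39.3 per Mb), and ZH11 on chromosomes 11 and 6 (6.84 and 6.19 per Mb).

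On the sequences placed on no numbered chromosome, the lists were of almost equal length. ChrSy held 15 overexpressor and 14 ZH11 peaks, a ratio of 1.07 (0.482–2.40), and ChrUn held 8 and 7, a ratio of 1.14 (0.362–3.70). Of the ZH11 peaks there, 8 of 14 and 4 of 7 overlapped the overexpressor. The lowest ratio on a numbered chromosome was 3.404, on chromosome 11. ChrSy spans 0.4645 Mb and ChrUn 0.594 Mb. The intervals count peaks as independent, and peaks can stand in runs, so they do not test a difference between sequences.

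Each chromosome was divided into 10 equal parts from its first base to the last listed peak end. Summed over the 12 chromosomes, overexpressor-specific peaks were fewest in parts 4 and 5, where ZH11 peaks were most frequent. Parts 4 and 5 together, a zone picked after the values were seen, held 11.5% (10.9–12.2) of overexpressor-specific peaks, 27.1% (24.4–29.9) of ZH11-specific peaks and 27.6% (24.3–31.0) of overlapping overexpressor peaks. Overlapping peaks lie at ZH11 peaks by their definition, so their place follows that list. The ZH11 share in this zone was the higher one on 12 of 12 chromosomes, between 16.7% and 37.3% for ZH11 and between 9.92% and 17.1% for the overexpressor. That count compares the lists with each other: on chromosomes 4 and 11 the outermost parts held more of the ZH11 peaks (23.8% and 27.8%) than parts 4 and 5 did (21.1% and 16.7%). Parts 7 to 10 held 51.7% (50.7–52.6) of overexpressor-specific and 34.1% (31.3–37.1) of ZH11-specific peaks. The outermost part at each end held 23.5% (22.7–24.3) of all overexpressor peaks and 20.3% (18.5–22.3) of all ZH11 peaks, and the overexpressor was higher there on 9 of 12 chromosomes.

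**Figure D5:**
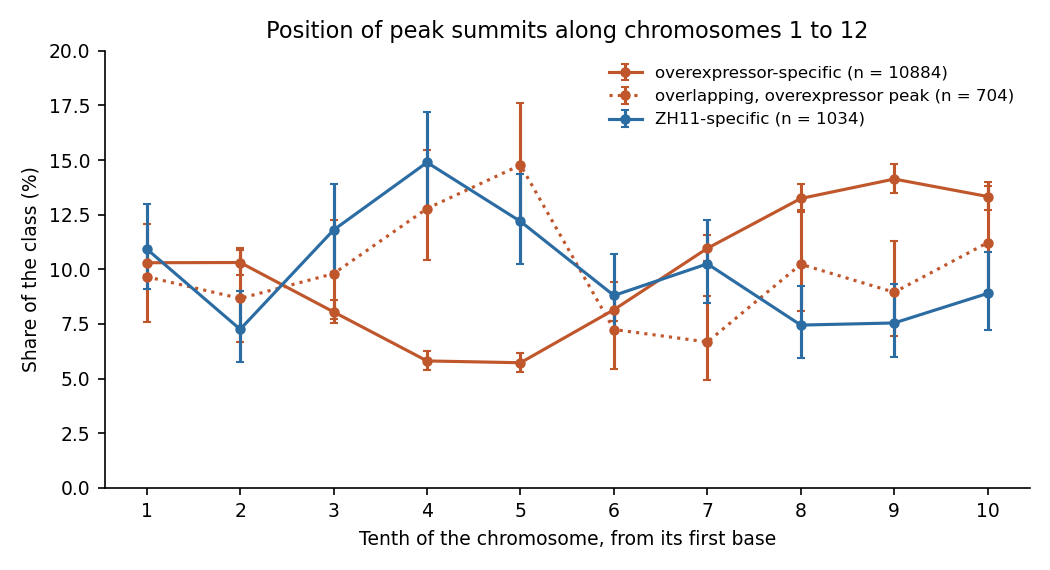
Share of each class of peaks (%, 95% exact intervals) in 10 equal parts of chromosomes 1 to 12, for overexpressor-specific peaks (orange, solid), overlapping peaks of the overexpressor (orange, dotted) and ZH11-specific peaks (blue). Overexpressor-specific peaks fall to 5.81% and 5.72% in parts 4 and 5, where ZH11-specific peaks stand at 14.9% and 12.2%.

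List-specific peaks were also counted in windows of 1 Mb. Over 366 full windows the overexpressor list had a median of 29 peaks (5 to 63) and the ZH11 list a median of 4 (0 to 22), with no ZH11 peak in 15 windows. List-specific counts of the 2 libraries had a Spearman correlation of -0.43 and a Pearson correlation of -0.40 over these windows, which share mappability and base composition. A peak counts as specific only where no peak of the other list touches it. A window dense in overexpressor peaks therefore leaves fewer ZH11 peaks specific, so part of the negative sign may be built in. The correlation of the full lists was not computed. The densest overexpressor window was Chr3:10000001-11000000, with 63 peaks against 2 in ZH11. The densest ZH11 window was Chr11:12000001-13000000, with 22 peaks in each list, of which 16 overlapped. ZH11 had at least as many peaks as the overexpressor in 4 of the 366 windows, of which 3 were on chromosome 4 and the other was this one.

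Overexpressor peaks were narrowest in parts 4 and 5, with median widths of 981 and 990 bp, against 1075 to 1244 bp in the other parts. Their median fold enrichment ran from 8.39 in part 8 to 9.3 in part 5. The share of its peaks that overlapped ZH11 was 12.5% (10.1–15.1) in part 4 and 14.3% (11.8–17.1) in part 5, against 3.79% (2.80–5.01) in part 7. In ZH11 the overlapping share was 35.6% (29.5–42.0) in part 4 and 44.7% (38.2–51.4) in part 5, and it ran from 30.3% (23.1–38.2) in part 7 to 46.5% (38.2–55.0) in part 8.

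The first bases of some chromosomes had a peak in every list. Within the first 2000 bp, chromosomes 1, 8, 10 and 12 each had a peak in the overexpressor, in ZH11 and in the drought list, and no other chromosome had one in any list. On chromosome 1 these were Chr1:945-1416 with 32 tags in the overexpressor and Chr1:925-1504 with 29 tags in ZH11. On chromosome 8 they had 20 and 59 tags, on chromosome 10 they had 16 and 19, and on chromosome 12 they had 110 and 115. These starts were looked at after the values were seen, and the number of tags there went in no common direction.

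The drought list of ZH11 touched 63.4% (59.8–66.9) of the overlapping overexpressor peaks and 19.4% (18.7–20.2) of the overexpressor-specific ones. Those specific peaks that it touched had a median of 106 tags and a score of 169, against 63 tags and 85.2 in the ones it did not. Among the 1738 overexpressor peaks of highest score, with scores of 225 and up, 53.7% overlapped a drought peak, against 22.1% (21.4–22.9) of all overexpressor peaks. Of the 1738 ZH11 peaks, 153, or 8.80% (7.51–10.2), overlapped any of these highest-scoring overexpressor peaks. The drought list touched 42.6% (40.3–45.0) of all ZH11 peaks, 64.5% (60.8–68.0) of the overlapping ones and 28.1% (25.4–30.9) of the specific ones. It held 4260 peaks, so its shares are not comparable with those of the shorter ZH11 list. The drought list covered 1.76% of the span.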

How the data were processed

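ChIP-seq peaks from 1 ZH11 normal and 1 overexpressor normal library were compared, with ZH11 drought as a further list. Per the file headers, the authors called peaks in each library with MACS 1.4.2 and no control sample. The cutoff on p was 1e-05, the local background 10000 bp, and 1 tag was kept per position. The genome size was set to 2.7 Gb, whereas the listed peaks reach over 374 Mb. The submitters' processing notes name Trimmomatic 0.32 for the ChIP libraries, and Trimmomatic 0.32, TopHat2 2.0.8 and edgeR 3.6.0 for the RNA libraries. The aligner of the ChIP reads and the genome build are not given in the sources used here. The deposited tag counts per peak, score (10 times the negative log10 of p, highest 3100) and fold enrichment (a ratio to local background in the same library) are the authors' own values, so score and fold enrichment describe peaks within a list. The deposited positions, widths and summits were used as listed.

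Overlaps, gaps and intervals were computed in Python 3.11.15 with scipy 1.17.1 and tested on simulated lists, where 696 of 696 overlaps made were found. Tags were divided by all tags the caller used, inside and outside peaks. The deposited RNA read numbers are the authors' expected counts per gene, in steps of 0.5; they were rounded and scaled over 6 libraries in edgeR 4.0.16 (trimmed mean of M-values over 21409 genes). RNA ratios over all genes used CPM plus 0.5, for genes that reached 10 reads in 1 of the libraries.

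Named peaks were the 5 of highest fold enrichment in each class, the 5 overlapping pairs with most overexpressor tags, and the widest of each list; others are marked as chosen after their values were seen. The bZIP genes are named outside that rule, as the targeted gene and its relatives. The comparison and lists were chosen with earlier results of these data known. Steps that place peaks by genes or motifs were not run.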

Additional observations from a re-analysis of the deposited data

How the results depend on the processing

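The overlap depended on how it was defined and on the score asked for. Overlapping overexpressor peaks numbered 472 (4.07%) with at least 50% of both peaks, 428 (3.69%) with summits within 250 bp, 129 (2.39%) with scores of at least 100 in both lists and 163 (3.57%) with fold enrichment of at least 10 in both. For ZH11 the values were 472 (27.2%), 428 (24.6%), 124 (62.3%) and 160 (41.9%), and 153 (8.80%) against the overexpressor peaks of highest score. Lists of 5408 and 199 peaks were left at a score of 100 and 4565 and 382 at a fold enrichment of 10, so the overexpressor list stayed the longer one. Merging peaks within 300 bp moved no count by more than 1.5 times.

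Ratios of medians, overlapping over specific, changed as follows. In the overexpressor at a score of 100 they were 0.562 for width, from 0.783, and 1.495 for fold enrichment, from 1.20. In ZH11 the width ratio of 1.15 reversed to 0.944 at 50% overlap and to 0.732 at a score of 100, and the fold enrichment ratio of 0.992 reversed to 1.11 and 1.39. The ZH11 tag ratio of 1.45 became 1.25 (1.09–1.43) and 1.77 (0.872–2.38). The median log2 density ratio was 0.26 at 50% overlap and reversed to -0.083 without division by width. The cause was not tested.

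The outer 2 parts at each end held 47.5% of overexpressor and 36.2% of ZH11 peaks. At a score of at least 100, an alternative added after seeing the data, the outermost parts held 17.3% of ZH11 peaks, and parts 4 and 5 held 11.6% of overexpressor and 37.6% of ZH11 peaks; among the overexpressor peaks of highest score they held 11.4%. No paired analysis was possible because each group had 1 library. Alternatives on gene starts, RNA near peaks, motifs and genome lengths were not run. Of the ZH11-specific peaks 29.3% held under 20 tags, and such values carry wide counting error.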
